A study of Mus musculus with 2 samples.

Results

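Collagens are extracellular matrix proteins built from chains that wind into a triple helix, and each collagen gene encodes 1 such chain. The collagen genes were taken as the autosomal protein-coding genes of GENCODE vM21 (mouse build GRCm38) whose symbol is Col, a number, the letter a and a number. This rule gave 42 of the 20807 autosomal protein-coding genes. They comprised 11 fibrillar collagens, 7 basement membrane collagens and 24 others. Fibrillar collagens form the tensile fibrils of cartilage, bone and connective tissue, basement membrane collagens form sheet-like networks under epithelia and around vessels, and the other classes decorate fibrils, form beaded filaments or networks, or span the plasma membrane. In the cochlea, collagens build the tectorial membrane, the basilar membrane and the surrounding cartilage and connective tissue, and mutations in several of them cause hereditary deafness.

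The study asked how loss of *Bmi1*, a component of a Polycomb repressive complex, changes chromatin in the organ of Corti, the sensory epithelium of the cochlea. ATAC-seq was performed on dissected organs of Corti of neonatal mice at P2, and this assay marks open chromatin because the Tn5 transposase inserts sequencing adapters where DNA is accessible. The groups were wild-type (WT) mice and *Bmi1*-/- littermates homozygous for the germline *Bmi1* tm1Brn allele, which had been backcrossed to C57BL/6J. The study's dissections removed the tectorial membrane, the modiolus and the precursor of the stria vascularis, and the organs of several mice were pooled for each genotype and gave 1 library, so there were no replicates and no test between genotypes was possible.

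The data are 1 list of peaks per library, a peak being a stretch of the genome where reads pile up above the local background. On the placed chromosomes there were 77596 peaks for the library labelled WT and 100431 for the library labelled *Bmi1*-/-, called the WT-labelled and the *Bmi1*-/--labelled list. For each peak the authors deposited the fold enrichment at its summit and the −log10 p of that enrichment, and the number of reads at the summit (the pileup) and the background were solved from both values. The background most often found was 6.32 reads in the former library and 8.04 in the latter, a ratio of 1.27, so the latter was the deeper. Because of this, peaks were compared between lists by rank. The rank of a peak was the percentile of its −log10 p among all peaks of its own list. Rank did not make the lists equal. Of all genes with a promoter peak (defined below) in both lists, 67.6% ranked higher in the *Bmi1*-/--labelled list. The rank of a single gene is to be read against this share. Shares are given with exact binomial 95% intervals and pileups with exact Poisson 95% intervals, which cover counting error only.

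The names given to the peaks inside the files went against the labels. All names in the WT-labelled list began with bko, the prefix of the knockout, and all in the other list with bwt. All directions below therefore rest on GEO's labels. *Bmi1* itself did not settle the question. Its gene body (chr2:18677018-18686629) held 1 peak in the WT-labelled list, at the 40.1st percentile, and 3 in the *Bmi1*-/--labelled list, the strongest at the 92.0th percentile. Both of these peaks lay at the start of the gene. Whether the deleted part reaches that position was not given in the sources used here, so these peaks check nothing about the labels.

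A gene was counted as having a promoter peak when the centre of a peak lay within 3 kb of any of its annotated transcription start sites (TSS). The labelled tissue was examined through marker genes in the same way. Of 10 hair cell markers, 9 had a promoter peak in the WT-labelled list and 8 in the *Bmi1*-/--labelled list. In both lists 7 had one, among them *Atoh1*, *Pou4f3* and *Myo7a*. *Otof* had none in the WT-labelled list, and *Lhx3* and *Barhl1* had none in the other. Of 10 supporting cell markers, 9 had one in each list, *Sox2* ranking at the 94.8th and 97.1st percentile. *Lfng* was the exception, with none in either list. Markers of neighbouring tissues that make much collagen were counted too. Cartilage markers with a promoter peak numbered 7 and 9 of 10, mesenchyme and fibrocyte markers 4 and 5 of 9, endothelial markers 7 and 7 of 10 and glial markers 6 and 7 of 9, for the lists labelled WT and *Bmi1*-/- respectively. Over all autosomal protein-coding genes the shares were 61.5% and 70.6%, so counts of this size do not show that a tissue was represented. At *Lum*, *Dcn* and *Postn*, which mark fibroblasts, neither list had a promoter peak, and *Sox10* of glia had none. An open promoter does not identify the cell it came from, and the part of these tissues in the collagen peaks was not tested.

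Collagen genes had a promoter peak in about the proportion found over all genes. In the WT-labelled list, 29 of the 42 genes had one (69.0%, 52.9% to 82.4%), against 61.5% of all autosomal protein-coding genes. For the *Bmi1*-/--labelled list the number was 31 (73.8%, 58.0% to 86.1%), against 70.6%. Both lists had a promoter peak at 25 collagen genes (59.5%, against 55.2% of all genes), and neither had one at 7 (16.7%, against 23.2%). The background share lay within the interval of the collagens in both lists. A promoter peak in the *Bmi1*-/--labelled list only was found at 6 genes (14.3%, against 15.4%), and in the WT-labelled list only at 4 (9.52%, against 6.23%). At 35 collagen genes at least 1 list had a promoter peak. For 23 of these (65.7%, 47.8% to 80.9%) it was found only in the *Bmi1*-/--labelled list, or the strongest one ranked higher there, against 68.6% of 15987 genes. For the remaining 12 (34.3%, against 31.4%) it was found only in the WT-labelled list, at 4 genes, or ranked higher there, at 8. Among the 25 with a promoter peak in both, 17 (68%, 46.5% to 85.05%) ranked higher in the *Bmi1*-/--labelled list, against 67.6% of all such genes. In the counts by class below, a gene with a promoter peak in 1 list only is counted as ranking higher in that list. The direction of the collagens was therefore that of genes at large. At the stricter q-value of the sensitivity runs (−log10 q 1.3 or more), 18 collagen genes (42.9%, 27.7% to 59.0%, against 47.2% of all genes) had a promoter peak in the WT-labelled list and 27 (64.3%, 48.0% to 78.45%, against 62.6%) in the other. Both lists then had one at 14 (33.3%, 19.6% to 49.55%, against 41.3%) and the *Bmi1*-/--labelled list only at 13 (31%, 17.6% to 47.1%, against 21.4%). The counts depended on the threshold, and the 4 shares of all genes again lay within the intervals.

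The collagen promoters stood lower in the ranking than promoters at large. Among genes with a promoter peak, the median rank of the strongest was the 66.4th percentile for collagens in the WT-labelled list and the 77.0th for all genes. The corresponding medians in the *Bmi1*-/--labelled list were 78.0 and 87.4. A promoter peak at or above the 90th percentile was found at 3 of 29 collagen genes (10.3%) and 6 of 31 (19.4%), against 31.2% and 45.3% of all genes with a promoter peak. The plot of promoter peak ranks by gene shows *Col25a1* and *Col2a1* at the top of both lists, followed by *Col12a1* in the WT-labelled list and by *Col11a1* in the other.

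**Figure D1:**
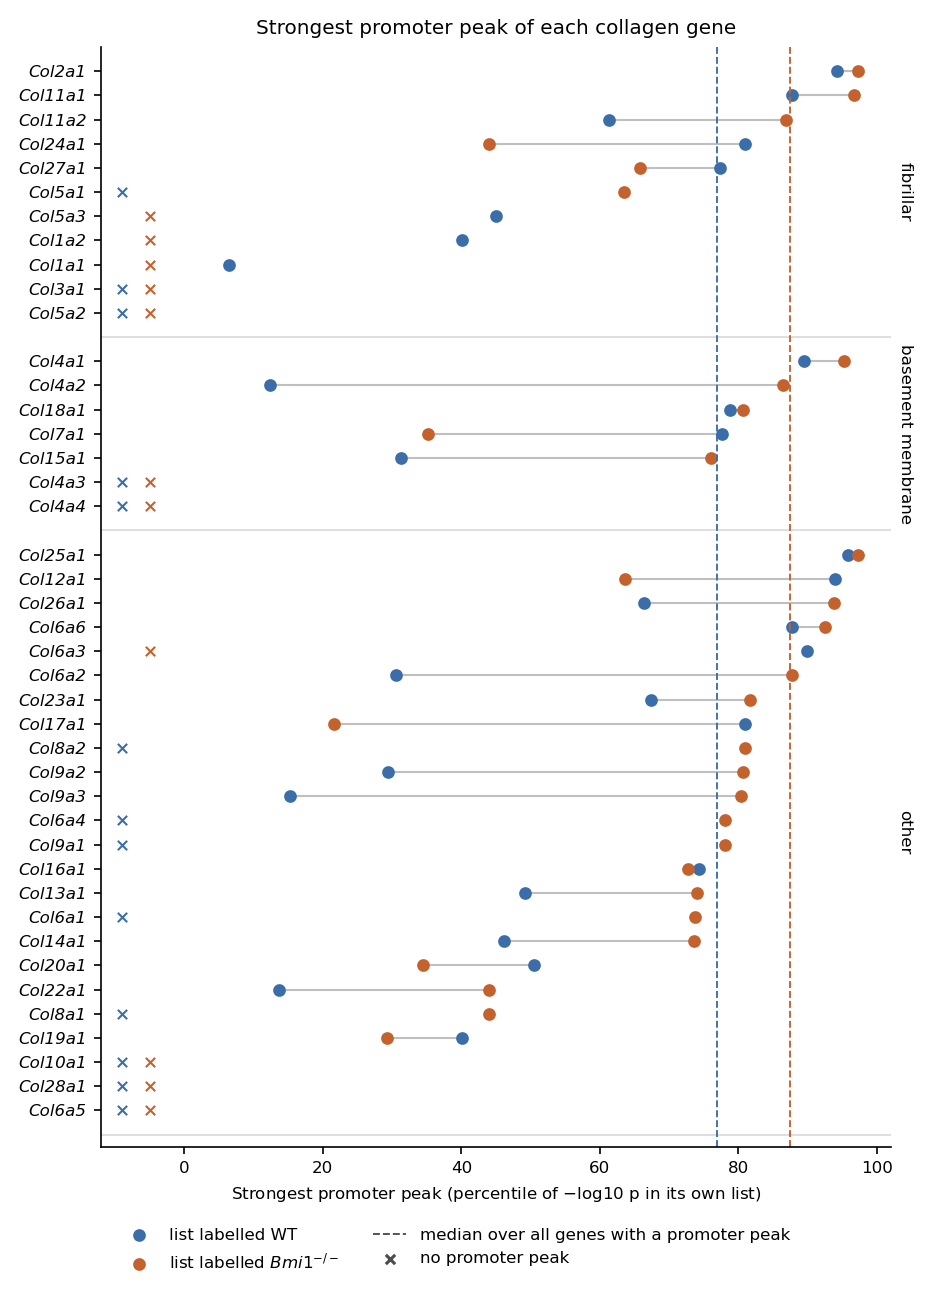
Percentile of the strongest promoter peak (horizontal axis, 0 to 100, within its own list) for each of the 42 collagen genes, grouped as fibrillar, basement membrane and other, in the WT-labelled list and the *Bmi1*-/--labelled list, with dashed lines at the medians over all genes with a promoter peak (77.0 and 87.4). *Col25a1* (95.8 and 97.4) and *Col2a1* (94.3 and 97.3) stand at the upper end in both lists, and crosses at the left mark a list with no promoter peak at that gene, which holds for both lists at 7 genes.

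Among the fibrillar collagens, *Col2a1* and *Col11a1* had the strongest promoter peaks, and the genes of types I, III and V had lower-ranked ones or none. Of the 11 genes, 8 had a promoter peak in the WT-labelled list and 6 in the *Bmi1*-/--labelled list, and 5 had one in both. *Col2a1* encodes type II collagen, the main fibril of cartilage and of the tectorial membrane. Its TSS was covered in both lists. The peak labelled WT, chr15:98004329-98004801, had a pileup of 29 reads (19.4 to 41.6) over a background of 9.42 and lay at the 94.3rd percentile, with its centre in exon 1. The peak labelled *Bmi1*-/-, chr15:98004503-98005014, had a pileup of 42 reads (30.3 to 56.8) over 13.2 and lay at the 97.3rd percentile. These 2 peaks overlapped, and the intervals of their pileups overlapped as well. *Col2a1* had 8 peaks in the WT-labelled list and 3 in the *Bmi1*-/--labelled list, which is the reverse of the lists' overall sizes. The strongest of the 8 was not the promoter peak but one at chr15:98011270-98011565, 6722 bp upstream of the gene, at the 97.4th percentile and with no overlap in the other list. It was singled out after its rank was seen.

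*Col11a1* and *Col11a2* encode chains of type XI collagen, which sets the diameter of type II fibrils and is altered in forms of hereditary deafness. *Col11a1* had a single peak in the WT-labelled list, chr3:114030273-114030634, with 21 reads (13 to 32.1) over 6.32 at the 87.8th percentile. The overlapping peak labelled *Bmi1*-/-, chr3:114030158-114030978, had 31 reads (21.1 to 44.0) over 8.34 at the 96.6th percentile. Both covered the main TSS. *Col11a2* had 3 promoter peaks in each list and none of them overlapped. Its strongest lay in exon 6 at chr17:34045716-34045980 in the WT-labelled list (61.4th percentile), and in intron 24 at chr17:34053407-34053643 in the *Bmi1*-/--labelled list (86.8th percentile), each within 3 kb of the start of a shorter annotated transcript. *Col24a1*, a minor fibrillar collagen, ranked in the opposite direction. Its peak in exon 1, chr3:145292803-145293136, ranked at the 81.0th percentile in the WT-labelled list, and the overlapping peak labelled *Bmi1*-/- at the 22.0th. The strongest promoter peak labelled *Bmi1*-/- was at the 44.0th, in intron 59 and far from the main TSS. *Col27a1*, a fibrillar collagen of cartilage, was the remaining gene with a promoter peak in both lists.

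Type I collagen, the fibril of bone, skin and fibrous tissue, had promoter peaks only in the WT-labelled list, and these were weak. *Col1a1* had 1 peak there, chr11:94937774-94938085 in exon 2, with 20 reads (12.2 to 30.9) over 9.64 at the 6.42nd percentile. The *Col1a2* peak, chr6:4505205-4505671, covered the main TSS with 17 reads (9.90 to 27.2) over 6.32, at the 40.1st percentile. Neither peak had a q-value under 0.05. *Col5a3* likewise had a promoter peak in the WT-labelled list only (chr9:20814878-20815120, exon 1, 44.9th percentile). *Col5a1* had none there and 5 in the *Bmi1*-/--labelled list, the strongest in intron 54 at the 63.5th percentile, far from the main TSS. Type V chains co-assemble with type I. *Col3a1*, the type III collagen of vessels and soft tissue, had no peak in its promoters, its body or the 10 kb upstream in either list, and its neighbour *Col5a2* had only 1, in intron 18, in the *Bmi1*-/--labelled list. By rank, 4 of the 9 fibrillar genes with a promoter peak (44.4%, 13.7% to 78.8%) stood higher in the *Bmi1*-/--labelled list, and the interval includes the 68.6% of all genes.

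**Figure D2:**
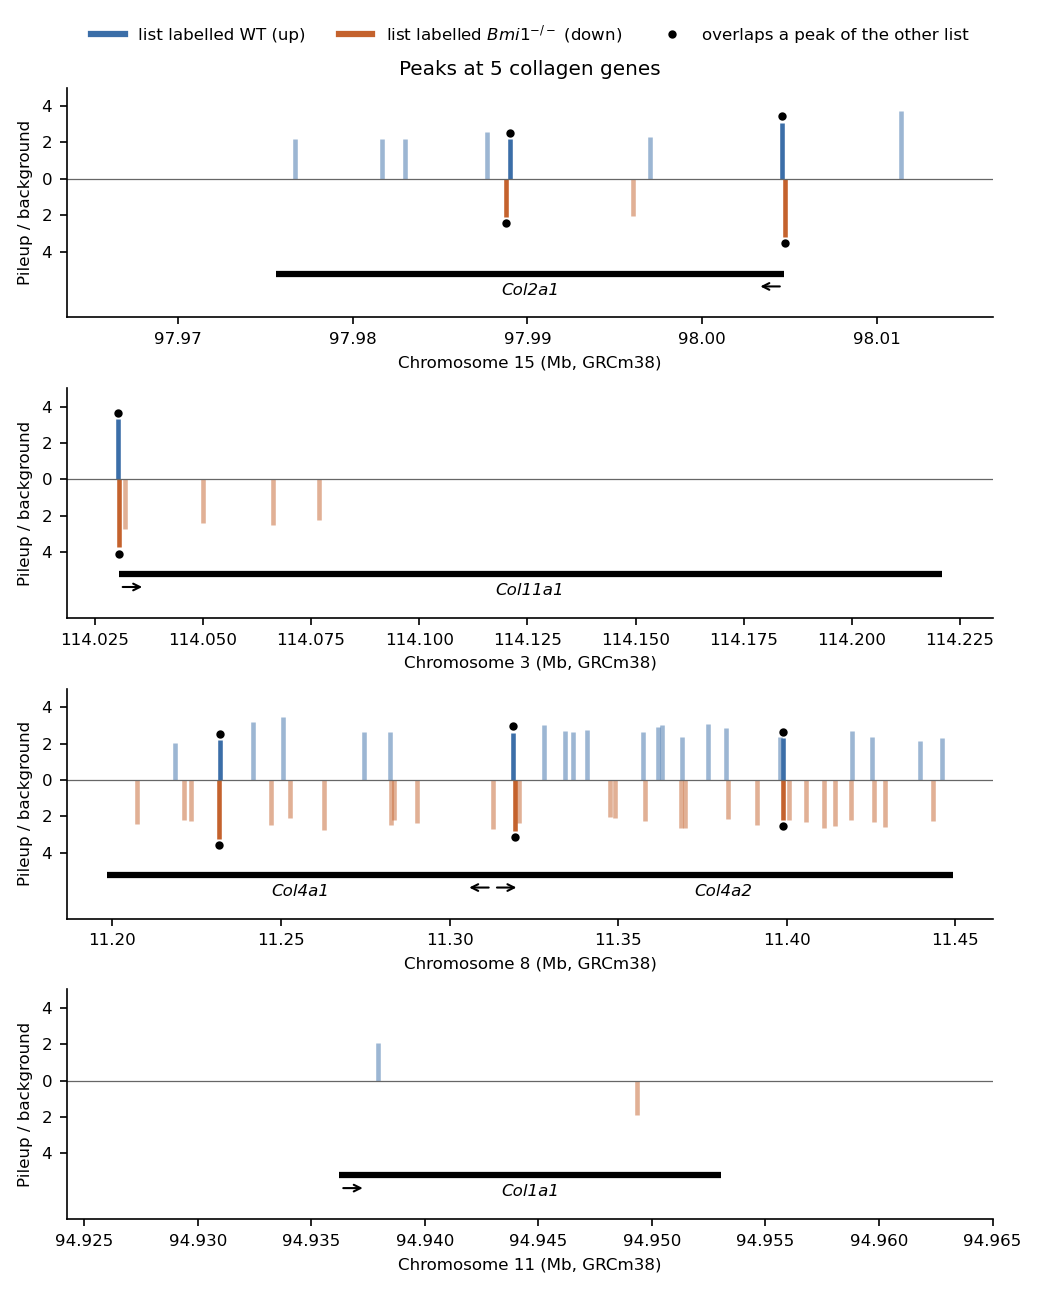
Peaks along *Col2a1*, *Col11a1*, *Col4a1* with *Col4a2*, and *Col1a1* (horizontal axis, GRCm38 position), drawn as pileup over background (vertical axis), upward for the WT-labelled list and downward for the *Bmi1*-/--labelled list. Dots mark peaks that overlap a peak of the other list, such as those over the *Col2a1* and *Col11a1* starts, whereas most peaks along *Col4a1* and *Col4a2* carry no dot.

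The basement membrane collagens were split by locus. *Col4a1*, *Col4a2*, *Col7a1*, *Col15a1* and *Col18a1* had a promoter peak in both lists, and the head-to-head pair *Col4a3* and *Col4a4* had none in either. *Col4a1* and *Col4a2* encode the type IV chains found in all basement membranes. They lie head to head on chromosome 8, and the annotated genes overlap by 22 bp. The *Bmi1*-/--labelled list had a peak over this shared start, chr8:11312698-11313048, with 30 reads (20.2 to 42.8) over 11.2, at the 86.4th percentile. The WT-labelled list had no peak within 3 kb of it. Its strongest promoter peak at *Col4a1*, chr8:11241625-11241888 in intron 12, ranked at the 89.4th percentile near a shorter transcript, and the strongest at *Col4a2* lay in exon 38 at the 12.4th. *Col4a1* also had the strongest basement membrane promoter peak of the *Bmi1*-/--labelled list, chr8:11231571-11231900 in intron 23, with 33 reads (22.7 to 46.3) over 10.2 at the 95.3rd percentile. It overlapped a peak labelled WT. This pair was thus called at its common start in 1 list only, and within 3 kb of internal starts in both.

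*Col4a3* and *Col4a4* encode the type IV chains of the glomerular and cochlear basement membranes that are altered in Alport syndrome, a kidney disease with deafness. Their starts are 71 bp apart. Although neither had a promoter peak, *Col4a3* had 3 peaks in the WT-labelled list and 5 in the *Bmi1*-/--labelled list, and *Col4a4* had 4 and 10. The peak chr1:82580156-82580460 of the *Bmi1*-/--labelled list lay in the regions of both genes and is counted for each. *Col18a1*, the source of endostatin, had its strongest promoter peak at the 78.8th percentile of the WT-labelled list (chr10:77167725-77167946, upstream) and at the 80.7th of the *Bmi1*-/--labelled list (chr10:77059715-77059947, intron 33). *Col7a1*, the collagen of anchoring fibrils, was at the 77.7th and the 35.2nd percentile, and *Col15a1*, a relative of *Col18a1*, made up the class. The 7 genes had 51 peaks labelled WT and 71 labelled *Bmi1*-/- in 0.806 Mb, or 63.3 and 88.1 per Mb, compared with 44.95 and 56.6 in the regions of all genes and 33.7 and 49.3 for the fibrillar genes. *Col4a2* alone had 17 and 19 peaks, most of them in introns. Of the 5 genes with a promoter peak, 4 (28.4% to 99.5%) ranked higher in the *Bmi1*-/--labelled list, and the interval includes the 68.6% of all genes.

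Among the 24 other collagens, 16 had a promoter peak in the WT-labelled list, 20 in the *Bmi1*-/--labelled list and 15 in both. The fibril-associated collagens, which sit on the surface of fibrils, made up 9 of the 24. Type IX collagen is the member of this group that coats type II fibrils. *Col9a1* had no peak of any kind in the WT-labelled list, and 4 promoter peaks in the *Bmi1*-/--labelled list, of which the strongest lay in intron 6 (chr1:24195251-24195482) with 23 reads (14.6 to 34.5) over 8.04 at the 78.0th percentile. *Col9a2* was at the 29.5th percentile in the WT-labelled list and at the 80.6th in the *Bmi1*-/--labelled list, and *Col9a3* at the 15.3rd and the 80.4th. These last 2 genes thus ranked higher in the *Bmi1*-/--labelled list, as did 67.6% of all genes with a promoter peak in both. Their promoter peaks did not overlap between the lists. With no peak of *Col9a1* labelled WT, neither could be compared there. *Col12a1*, which binds type I fibrils, went the other way. Its peak over the main TSS, chr9:79718399-79718820, had 28 reads (18.6 to 40.5) over 9.0 at the 94.0th percentile of the WT-labelled list, and its strongest promoter peak labelled *Bmi1*-/- was at the 63.7th. *Col14a1*, *Col16a1*, *Col19a1*, *Col20a1* and *Col22a1* completed the group, each with a promoter peak in both lists, between the 13.7th and the 74.3rd percentile.

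Type VI collagen forms beaded filaments around cells, and its 6 genes differed in where they had peaks. *Col6a2* and *Col6a6* had promoter peaks in both lists, *Col6a3* in the WT-labelled list only, *Col6a1* and *Col6a4* in the *Bmi1*-/--labelled list only and *Col6a5* in neither. The *Col6a3* peak, chr1:90841536-90841842 in intron 1, was at the 89.9th percentile with 23 reads (14.6 to 34.5) over 7.16. At *Col6a1* and *Col6a4* the strongest peaks labelled *Bmi1*-/- were at the 73.8th (intron 2) and 78.0th percentile (exon 5). The strongest promoter peaks of *Col6a6* were at the 87.8th and the 92.5th percentile, both in intron 1 and within 3 kb of the start of a shorter transcript. A weaker peak labelled *Bmi1*-/-, chr9:105827980-105828320 at the 44.0th percentile, covered its main TSS. The 3 short-chain collagens form hexagonal networks. *Col8a1* and *Col8a2*, known from the corneal endothelium, had promoter peaks in the *Bmi1*-/--labelled list only, at the 44.0th and 81.0th percentile. *Col10a1*, the collagen of hypertrophic cartilage, had none in either list and 1 peak elsewhere in each.

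The transmembrane collagens included the strongest promoter of the family. At *Col25a1*, a neuronal transmembrane collagen, the peak labelled WT (chr3:130180436-130181261) had 25 reads (16.2 to 36.9) over 7.02 at the 95.8th percentile. The overlapping peak labelled *Bmi1*-/- (chr3:130180504-130181439) had 34 reads (23.6 to 47.5) over 9.06 at the 97.4th. Both spanned the main TSS. *Col23a1* had 20 peaks in the WT-labelled list, more than any other collagen gene, and 19 in the *Bmi1*-/--labelled list. Its start was covered in both, at the 67.4th and the 81.6th percentile. *Col13a1* and *Col17a1*, the latter a part of hemidesmosomes, also had promoter peaks in both lists. Of the 2 unclassified genes, *Col28a1* had no promoter peak. *Col26a1* had the most peaks of the *Bmi1*-/--labelled list, 21 against 13 in the WT-labelled list, and its strongest promoter peaks lay in intron 3 at the 93.9th and the 66.4th percentile respectively. Among all the other collagens with a promoter peak, 15 of 21 (71.4%, 47.8% to 88.7%) ranked higher in the *Bmi1*-/--labelled list, close to the 68.6% of all genes.

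Most peaks at collagen genes lay outside promoters. When the gene body and the 10 kb upstream were included, 39 of the 42 genes (92.9%) had a peak in the WT-labelled list and 40 (95.2%) in the *Bmi1*-/--labelled list, against 76.3% and 81.7% of all genes. *Col3a1* and *Col5a2* had none in the WT-labelled list, as did *Col9a1*, and *Col3a1* and *Col1a2* had none in the other. Collagen genes are long, and per length their peak density was close to that of all gene regions, lower in the WT-labelled list and slightly higher in the other. Their regions, 5.23 Mb in all, held 209 peaks labelled WT and 306 labelled *Bmi1*-/-, or 39.99 and 58.6 per Mb, against 44.95 and 56.6 per Mb in the regions of all genes. The ratio of these peak numbers was 1.46 (1.22 to 1.75), and the interval includes the 1.26 of all genes. The plot of peaks against gene length shows *Col4a2* and *Col26a1* above the mean density of gene regions and *Col25a1* and *Col19a1* below it in both lists. Counted once per gene, 56 of 210 peaks (26.7%) labelled WT and 85 of 310 (27.4%) labelled *Bmi1*-/- were promoter peaks. Outside promoters, 122 (58.1% of the 210) and 184 (59.4% of the 310) lay in introns, and 11 and 17 in coding exons. Promoter peaks that lay in introns or exons are not in these numbers. Strong peaks were few. A q-value under 0.05 was reached by 99 (47.4%) and 184 (60.1%) of the collagen peaks, slightly below the 53.5% and 64.5% at all genes. A −log10 q of at least 5 was reached by 0 collagen peaks labelled WT and by 3 (0.98%) labelled *Bmi1*-/-, against 1.87% and 5.76% at all genes. The 3 peaks were those over the starts of *Col2a1*, *Col11a1* and *Col25a1*.

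**Figure D3:**
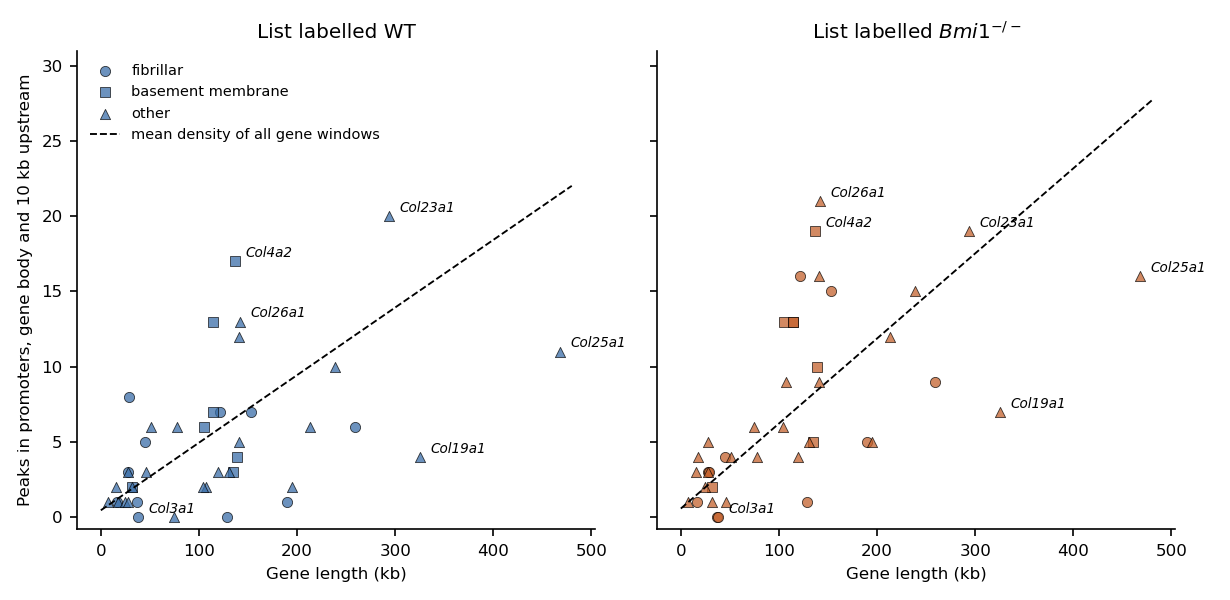
Number of peaks in the promoters, body and 10 kb upstream of each collagen gene (vertical axis) against gene length in kb (horizontal axis), for the WT-labelled list (left) and the *Bmi1*-/--labelled list (right). Symbols give the class and the dashed line the mean density of all gene regions, with *Col23a1* at 20 and 19 peaks and *Col3a1* at 0 in both.

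Peaks at collagen genes were seldom at the same position in both lists. Of the 209 peaks labelled WT, 29 (13.9%, 9.49% to 19.3%) overlapped a peak of the other list by at least 1 bp, against 28.8% of the peaks at all genes. Of the 306 peaks labelled *Bmi1*-/-, 30 (9.80%, 6.71% to 13.7%) did so, against 21.9%. Both shares at all genes lay above the intervals of the collagens. Overlap over all genes was more frequent in promoters and among strong peaks, and collagen genes had fewer of both. Promoters held 26.8% of the collagen peaks labelled WT, against 40.1% at all genes, and peaks at or above the 90th percentile were 3.83% of them, against 11.2%. For the *Bmi1*-/--labelled list these shares were 27.5% against 39.8% and 3.59% against 12.5%. Within promoters, 11 of 56 collagen peaks labelled WT (19.6%, 10.2% to 32.4%) overlapped, against 48.8% at all genes, and 11 of 84 labelled *Bmi1*-/- (13.1%, 6.72% to 22.2%), against 36.7%. Outside promoters the shares were 11.8% (7.12% to 18.0%) against 15.4% and 8.56% (5.23% to 13.04%) against 12.1%, and the values for all genes lay within those intervals. Among peaks with a q-value under 0.05, set against the whole other list, 11.1% (5.68% to 19.0%) of the collagen peaks labelled WT overlapped, against 36.5% at all genes, and 10.9% (6.77% to 16.3%) of those labelled *Bmi1*-/-, against 27.5%. At or above the 90th percentile, 3 of 8 (8.52% to 75.5%) and 4 of 11 (10.9% to 69.2%) collagen peaks overlapped, and these wide intervals include the 64.5% and 65.3% of all genes. In the weaker part of each list, under the 50th percentile, the shares were 15.4% (9.38% to 23.2%) against 20.4% and 7.36% (3.86% to 12.5%) against 12.0%, and the values for all genes lay within the intervals. The lower overlap was thus seen within promoters and among peaks with a q-value under 0.05. Outside promoters, under the 50th percentile and among the few strongest peaks it could not be resolved. Promoter peaks were counted at any annotated start, also those inside genes, and position and rank were not matched together. The strongest promoter peaks of collagens had lower median ranks than those of all genes. Whether the overlap differs at equal rank and distance to the main TSS was not tested.

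By gene, 20 of the 42 (47.6%, against 52.3% of all genes) had a peak at an overlapping position anywhere in their region, and 10 (23.8%, 12.0% to 39.5%, against 42.2%) had one in a promoter. These 10 were *Col2a1*, *Col11a1*, *Col24a1*, *Col27a1*, *Col4a1*, *Col12a1*, *Col14a1*, *Col20a1*, *Col23a1* and *Col25a1*. Although 25 genes had a promoter peak in both lists, at 15 of them (60%, 38.7% to 78.9%) no WT-labelled promoter peak overlapped a peak of the other list, against 23.6% among all 11493 genes where both lists had one. The share over all genes lay below that interval. The fibrillar class contributed 4 of its 11 genes, the basement membrane class 1 of 7 and the others 5 of 24.

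Many collagen genes have several annotated starts, so the peaks were also counted at the TSS of the principal transcript alone, a choice made after the data had been seen. A peak centre lay within 3 kb of it at 23 genes (54.8%, against 53.9% of all genes) in the WT-labelled list and at 26 (61.9%, against 65.2%) in the *Bmi1*-/--labelled list, close to the shares over all genes. For the basement membrane class these numbers were 1 and 3 of 7. A peak covered the main TSS itself at 8 genes (19.0%, 8.6% to 34.1%) in each list, against 24.1% and 39.0% of all genes. It did so in both lists at 4 genes (9.52%, 2.66% to 22.6%, against 20.4%), which were *Col2a1*, *Col11a1*, *Col23a1* and *Col25a1*. For the *Bmi1*-/--labelled list the share over all genes lay above the interval of the collagens. For the WT-labelled list, and for both lists together, it lay within.

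The bases before the gene start were compared with the peaks, because accessible promoters are commonly rich in CG dinucleotides. RefSeq promoter sequences (GRCm38.p6) were matched to 33 of the 42 genes, and the 250 bases upstream of each start were used. The unmatched genes were *Col1a1*, *Col2a1*, *Col4a3*, *Col5a2*, *Col9a3*, *Col12a1*, *Col14a1*, *Col22a1* and *Col26a1*. Of these, *Col2a1* had a peak over its main TSS in both lists, *Col12a1* in the WT-labelled list and the others in neither. The shares below therefore leave out the covered starts of *Col2a1* and *Col12a1*. The median GC content was 59.2% for the collagens and 56.4% for all 19170 promoters. The median CpG ratio, the number of CG dinucleotides over that expected from the base composition, was 0.430 against 0.563. A ratio of at least 0.6 was found in 10 of 33 collagen promoters (30.3%) and in 47.1% of all promoters. A peak overlapped the window at 5 collagen genes (15.2%, against 31.4%) in the WT-labelled list and at 8 (24.2%, against 45.1%) in the *Bmi1*-/--labelled list. No intervals were computed for these shares. The 10 collagen windows under a peak of either list had a median CpG ratio of 0.676 and the 23 others 0.357, and over all promoters these medians were 0.772 and 0.263. Windows under a peak thus had the higher median ratio among collagens, as among promoters at large. At a ratio of at least 0.6, peaks of the WT-labelled and *Bmi1*-/--labelled lists overlapped 3 and 5 of 10 collagen windows. Over all promoters of that class the shares were 53.1% and 74.3%. Under 0.6 the collagen counts were 2 and 3 of 23, against 12.0% and 19.2%. The collagen shares were lower in both classes, but the counts are small and the difference was not tested.

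Short promoter elements were counted on both strands as exact letters, and a match is a description and not a bound site. The GC box (GGGCGG) was in 18 of 33 collagen windows (54.5%, against 44.6% of all), the CCAAT box (CCAAT) in 10 (30.3%, against 34.7%) and the TATA box (TATAAA) in 5 (15.2%, against 11.2%). Of the 10 windows under a peak, 9 had a GC box and 7 a CCAAT box, and of the 23 others 9 and 3. Over all promoters the GC box was in 66.8% of windows under a peak and 22.6% of the rest, and the CCAAT box in 35.9% and 33.6%. The collagen counts are small, and the windows of *Col4a1* and *Col4a2* lay under the same peak, so they are not separate cases. The difference was not tested. The 3 genes covered at their main start in both lists and matched to a sequence are shown first, as the clearest open collagen promoters. *Col5a1* and *Col5a3* follow, 2 chains of the same collagen whose windows were under a peak of the *Bmi1*-/--labelled list and of the WT-labelled list respectively, and *Col3a1* is last, as the gene with no peak. The choice was made after the peaks were known. Capitals mark the 3 elements in either orientation, and each sequence reads toward the gene in its own strand. The positions are chr3:114030290-114030539 (plus strand) for *Col11a1*, chr11:51289670-51289919 (plus) for *Col23a1*, chr3:130180595-130180844 (plus) for *Col25a1*, chr2:27886175-27886424 (plus) for *Col5a1*, chr9:20815068-20815317 (minus) for *Col5a3* and chr1:45311288-45311537 (plus) for *Col3a1*.
Col11a1: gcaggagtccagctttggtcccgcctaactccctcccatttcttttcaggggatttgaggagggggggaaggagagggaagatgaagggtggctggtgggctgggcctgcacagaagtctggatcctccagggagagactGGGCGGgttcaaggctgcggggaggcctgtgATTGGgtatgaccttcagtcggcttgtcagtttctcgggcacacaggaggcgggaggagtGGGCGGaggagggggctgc
Col23a1: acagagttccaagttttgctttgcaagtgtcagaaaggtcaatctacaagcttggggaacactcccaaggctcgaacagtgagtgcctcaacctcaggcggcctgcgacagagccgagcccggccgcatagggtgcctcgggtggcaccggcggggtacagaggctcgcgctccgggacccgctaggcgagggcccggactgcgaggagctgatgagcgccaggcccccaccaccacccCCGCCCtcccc
Col25a1: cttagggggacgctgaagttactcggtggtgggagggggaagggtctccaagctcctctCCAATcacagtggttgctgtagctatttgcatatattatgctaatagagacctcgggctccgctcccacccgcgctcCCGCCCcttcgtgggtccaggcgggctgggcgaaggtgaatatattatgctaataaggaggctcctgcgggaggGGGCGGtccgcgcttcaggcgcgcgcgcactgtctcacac
Col5a1: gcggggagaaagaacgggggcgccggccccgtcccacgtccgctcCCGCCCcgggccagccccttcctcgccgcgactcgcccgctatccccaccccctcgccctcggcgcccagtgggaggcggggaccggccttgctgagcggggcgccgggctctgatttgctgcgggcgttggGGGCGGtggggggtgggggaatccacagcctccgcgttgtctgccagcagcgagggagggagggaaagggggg
Col5a3: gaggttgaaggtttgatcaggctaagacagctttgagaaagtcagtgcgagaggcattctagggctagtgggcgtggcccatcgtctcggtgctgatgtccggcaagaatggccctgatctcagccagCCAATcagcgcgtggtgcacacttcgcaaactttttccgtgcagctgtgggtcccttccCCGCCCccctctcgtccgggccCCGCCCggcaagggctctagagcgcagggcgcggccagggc
Col3a1: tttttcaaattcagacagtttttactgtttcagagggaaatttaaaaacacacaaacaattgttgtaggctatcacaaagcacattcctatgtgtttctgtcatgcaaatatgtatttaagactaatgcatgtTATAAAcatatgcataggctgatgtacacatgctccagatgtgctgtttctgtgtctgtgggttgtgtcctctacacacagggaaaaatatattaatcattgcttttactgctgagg
The windows of *Col11a1* and *Col25a1* each had 2 GC boxes and 1 CCAAT box, and that of *Col23a1* had 1 GC box. *Col5a1* had 2 GC boxes in a window of 76.4% GC, and *Col5a3* had 2 GC boxes and 1 CCAAT box at 62.8% GC. The *Col3a1* window had 35.2% GC, no CG dinucleotide and 1 TATA box.

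The genes that modify, process and bind collagen were examined as lists. Enzymes and chaperones of collagen modification and secretion, such as the prolyl hydroxylases, had a promoter peak in the WT-labelled list at 14 of 17 genes and in the *Bmi1*-/--labelled list at all 17, against 61.5% and 70.6% of all genes. Their median ranks were the 91.1st and the 86.9th percentile, against 77.0 and 87.4 over all genes with a promoter peak. The WT-labelled median was thus above that of all genes, and the other was close to it. *P4ha1*, a prolyl hydroxylase subunit, was at the 99.5th and 99.7th percentile. *Serpinh1*, the collagen chaperone of the endoplasmic reticulum, had no promoter peak in the WT-labelled list and one at the 8.56th percentile in the other. The list thus ran from the top to the bottom of the ranking.

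Genes of extracellular processing and cross-linking had promoter peaks at 10 and 11 of 13, with medians at the 43.9th and 82.8th percentile. For this list and those below, the shares over all genes were 61.5% and 70.6%. The medians over all genes with a promoter peak were 77.0 and 87.4. *Lox*, the main cross-linking oxidase, had one in the *Bmi1*-/--labelled list only (82.9th percentile), and *Loxl4* in the WT-labelled list only (47.8th percentile). Of the collagen receptors, 5 of 7 had a promoter peak in each list, with medians of 70.8 and 72.5. *Itgb1*, the beta chain shared by the collagen-binding integrins, ranked at the 94.8th and 98.9th percentile. Collagen-degrading proteases had 1 and 3 of 5, and *Mmp14*, a membrane-bound collagenase, was the gene with a promoter peak in both, at the 29.4th and 81.4th percentile. With 1 gene in the WT-labelled list, the medians of the proteases cannot be compared. The medians of a list are over the genes with a promoter peak in that library and so over different genes. Gene by gene, the rank was higher in the *Bmi1*-/--labelled list, or the peak was found only there, for 11 of 17 modification genes, 9 of 12 processing genes, 3 of 6 receptors and 3 of 3 proteases, against the 68.6% of all genes.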

How the data were processed

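ATAC-seq peak lists of 2 libraries, assigned to genotypes from their labels in GEO, were used. The submitters' processing notes name FastQC, BWA, MACS2, HOMER and mm10. The MACS2 version and options for the ATAC-seq peaks were not given in the sources used here. The lowest −log10 p was 2.0 in the WT-labelled list and 2.01 in the other. A q-value under 0.05 was reached by 52.4% and 62.8% of all peaks, and the other peaks were kept in the main counts. Fold enrichment was deposited as pileup over local background, with a pseudocount of 1 added to both. As deposited, −log10 p refers to a Poisson model of the summit pileup, and −log10 q is the authors' correction of it per library. A deposited score of 10 times −log10 p was left unused. The other columns give positions, all within the GRCm38 chromosomes. Solving fold enrichment and −log10 p gave a whole pileup for 100% of peaks (relative tolerance of p 0.0001).

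Percentiles were computed within each list and overlaps required 1 bp. Python 3.11.15, numpy 2.4.6, pandas 2.3.3, scipy 1.17.1, matplotlib 3.10.9 and samtools 1.23.1 were used, and the scripts were tested on simulated data. Genes named are, for each class and list, the 3 strongest promoters, all genes with a promoter peak in 1 list only, the 3 genes with most peaks per list, collagens known from the cochlea or deafness, and pairs sharing a promoter peak. Other genes are named to account for every member. The members and lists were chosen with earlier results of these data known. The alternatives were stricter q-values, equal peak numbers, other windows and overlaps, and the main TSS alone.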

Additional observations from a re-analysis of the deposited data

How the results depend on the processing

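Of 75 values recomputed for the 10 main results, 57 stayed within their binomial interval or within 1.5 times the main count, and 18 did not. Of the 57, 12 were counts or overlaps of all peaks in gene regions under the 1 kb window, the basic transcripts or the main TSS, and all 12 were identical to the main values. Without them, 45 of 63 stayed. Equal numbers of peaks from each list, a promoter window of 1 kb, transcripts with the GENCODE tag basic, gene bodies without the upstream part, any overlap with the window and the main TSS alone took none of them past these limits. The main TSS was chosen after seeing the data.

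With a −log10 q of at least 1.3, which leaves fewer peaks, 18 collagen genes had a promoter peak in the WT-labelled list, 14 in both lists and 13 in the *Bmi1*-/--labelled list only. Peaks at collagen genes then numbered 99 and 184, and 8.08% (3.55% to 15.3%) and 4.35% (1.90% to 8.39%) of them overlapped when both lists were restricted in this way, against 31.4% and 19.9% at all genes. With a −log10 q of at least 5, promoter peaks were left at 0 genes in the WT-labelled list, 3 in the *Bmi1*-/--labelled list, 0 in both, 3 in the latter only and 0 in the former only. Over all genes 4.37%, 18.5% and 3.38% had one in the WT-labelled list, in the other and in both. The collagen peaks numbered 0 and 3. With none labelled WT, the overlap of the others (0.0%) and the share ranking higher there (100%) were fixed in advance, and the overlap of the WT-labelled list gave no value. With a reciprocal overlap of at least 50%, 7.66% (4.44% to 12.1%) and 5.23% (3.02% to 8.35%) of the peaks were shared, against 15% and 11.9% at all genes.

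The library labelled *Bmi1*-/- had 1.27 times the background of the other, and with 1 library each read depth and genotype cannot be told apart. Most peaks rest on few reads, with a median pileup of 20 labelled WT and 23 labelled *Bmi1*-/- at collagen genes, and 19 and 22 at all genes.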

Other observations

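A pair of collagen genes lies on chromosome X and was left out by the rule. *Col4a5* (chrX:141475385-141689234) and *Col4a6* (chrX:141165403-141474076) encode further type IV chains. *Col4a5* had no peak in either list, and *Col4a6* had 1 peak in the *Bmi1*-/--labelled list, outside its promoters. Chromosome X held few peaks in both lists, 487 labelled WT and 724 labelled *Bmi1*-/-, or 2.85 and 4.23 per Mb, against 31.3 and 40.5 per Mb on the autosomes. Of 948 X-linked protein-coding genes, 166 (17.5%) and 270 (28.5%) had a promoter peak. In each list most X-linked genes had none.

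Several of the higher-ranked peaks at collagen genes lay outside promoters, and they were chosen after their ranks were seen. In the WT-labelled list, peaks in intron 2 of *Col4a1* (chr8:11250377-11250655) and intron 1 of *Col23a1* (chr11:51292848-51293358) were at the 95.5th and the 95.8th percentile, and the latter overlapped a peak of the other list. In the *Bmi1*-/--labelled list, peaks in intron 16 of *Col27a1* (chr4:63275691-63275949) and intron 3 of *Col26a1* (chr5:136801758-136801967) were at the 92.3rd percentile, and neither overlapped a peak labelled WT.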
